A study of Mus musculus with 2 samples.

Results

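The genes described here are 34 genes of the vascular basement membrane and the neighbouring extracellular matrix, out of 19831 genes measured in tumour endothelial cells. They were chosen as a named list of matrix genes, and all 34 were found in both deposited tables. By role, 13 encode basement membrane components and 21 encode interstitial, matricellular or elastic fibre components. Single-cell RNA sequencing (10x Genomics 3′ v3.1 chemistry) was run on CD31-positive cells sorted from tumours of adult C57BL/6 mice, CD31 being a surface protein of endothelial cells. It covers 1 library labelled control and 1 labelled NF2 KO. Nf2 encodes merlin, a protein under the cell membrane that feeds into the Hippo pathway. The tumour model, the treatment, the number of animals pooled, the exons removed and the promoter of any Cre driver are not given in the sources used here.

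The basement membrane is the thin sheet of matrix on which endothelial cells sit. Networks of type IV collagen and of laminin, a trimer of 1 alpha, 1 beta and 1 gamma chain, form its scaffold, and nidogens and heparan sulphate proteoglycans link them. The interstitial matrix beyond it is built of fibrillar collagens, fibronectin and elastic fibres and is made mainly by fibroblasts and mural cells. Matricellular proteins such as thrombospondins, tenascins and SPARC carry little mechanical load and change how cells attach to the matrix, and sprouting tumour vessels are known to remodel all of these layers.

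The control library held 2826 cells with 34649992 unique molecular identifiers (UMIs, counted molecules) and the knockout library 3368 cells with 58907098 UMIs. After removal of doublets and of clusters that were shallow or led by neutrophil or platelet markers, 1703 control cells (28154858 UMIs, median 14311 per cell) and 2738 knockout cells (52011169 UMIs, median 17002) were retained. These include the 56 control and 2 knockout cells of cluster 11, led by the leukocyte genes Lyz2 and Ptprc, which the rule on clusters kept; without it 1647 and 2736 cells remained. The barcodes of each library carry 1 of 2 run numbers, whose meaning is not stated. Runs are parts of 1 sample and not replicates, and any pair of them shared at most 1 barcode. Control run 1 was the shallowest, with 8611.5 UMIs in its median retained cell against 15269 to 21340 in the other runs. Levels are UMIs of a gene per 1000000 UMIs of the retained cells (CPM). Brackets give 95% intervals that cover counting error only. With 1 library per group no test between the conditions was possible. In place of a test, a size rule was used. It calls a gene higher or lower in the knockout cells when the CPM differ by a factor of 1.5 or more, the interval of the ratio leaves out 1 and the mean of both libraries is 20 CPM or more. Nf2 itself stood at 21.2 CPM in control cells and 19.96 CPM in those of the library labelled knockout (ratio 0.941, 0.850 to 1.04). Because 3′ tags can lie outside the exons removed, this level does not check the labels.

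Cells of other types bear on matrix genes, so their markers were summed in the retained cells. All 11 fibroblast markers together, Dcn and Pdgfra among them, came to 10.02 and 10.8 CPM in control and knockout cells, with a range over the 4 runs of 7.44 to 16.8 CPM. The 12 pericyte and smooth muscle markers summed to 176 and 72.4 CPM. Kcnj8 (104 and 14.4 CPM) and Abcc9 (48.7 and 12.2 CPM) made up most of that sum in control cells, and Tagln, a smooth muscle gene at 4.58 and 25.3 CPM, was the highest of these 3 in knockout cells. Pdgfrb, which defines pericytes, was at 0.142 and 0.288 CPM and Cspg4 at 0.0355 and 0.0385 CPM. Epithelial and tumour markers summed to 8.42 and 33.3 CPM, macrophage and monocyte markers to 55.7 and 66.5 CPM, neutrophil markers to 78.8 and 58.9 CPM, and erythroid and platelet markers to 58.6 and 34.2 CPM. The part of these cells in the levels of the matrix genes was not tested. The 19 endothelial markers summed to 11323 and 8937 CPM. The cells of the libraries also fell into different clusters: cluster 0, led by Cldn4 and F2rl1, held 859 knockout and 25 control cells, and cluster 4, led by Gal and Kcnj8, held 512 control and 6 knockout cells.

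Nearly all basement membrane genes had a lower level in the knockout library than in the control, and the other matrix genes went both ways. All 13 basement membrane members reached 20 CPM. Of these, 6 were lower by the size rule (Lamb1, Nid2, Lamc1, Agrn, Col4a1 and Col18a1), 1 was higher (Lamb2), and 6 did not pass. Their median log2 ratio was −0.57, and 12 of 13 had a ratio below 1. Among all 5830 genes of at least 20 CPM, 2.78% were higher and 5.25% were lower (8.03% either way), and the median log2 ratio was −0.03. Of the 21 other members, 10 reached 20 CPM: 4 were higher (Bgn, Col8a1, Thbs1 and Fn1), 3 were lower (Tnc, Sparcl1 and Sparc) and 3 did not pass. Their median log2 ratio was 0.22. Summed over the basement membrane list, the level was 8782 CPM in control and 5820 CPM in knockout cells (ratio 0.663, 0.659 to 0.666). The other members summed to 10140 and 8068 CPM, of which Sparc alone gave 75.7% and 55.1%. The 2 runs of each library can be set against each other as a description. The knockout runs lay below both control runs for 12 of 13 basement membrane members and above them for Lamb2, while of all genes tested 37.2% lay below, 27.4% above and 64.6% on either side without overlap. Across the 4 pairs of 1 knockout and 1 control run, the basement membrane median log2 ratio lay between −0.63 and −0.46. Between the runs of 1 library it was −0.17 (control) and −0.09 (knockout).

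**Figure D1:**
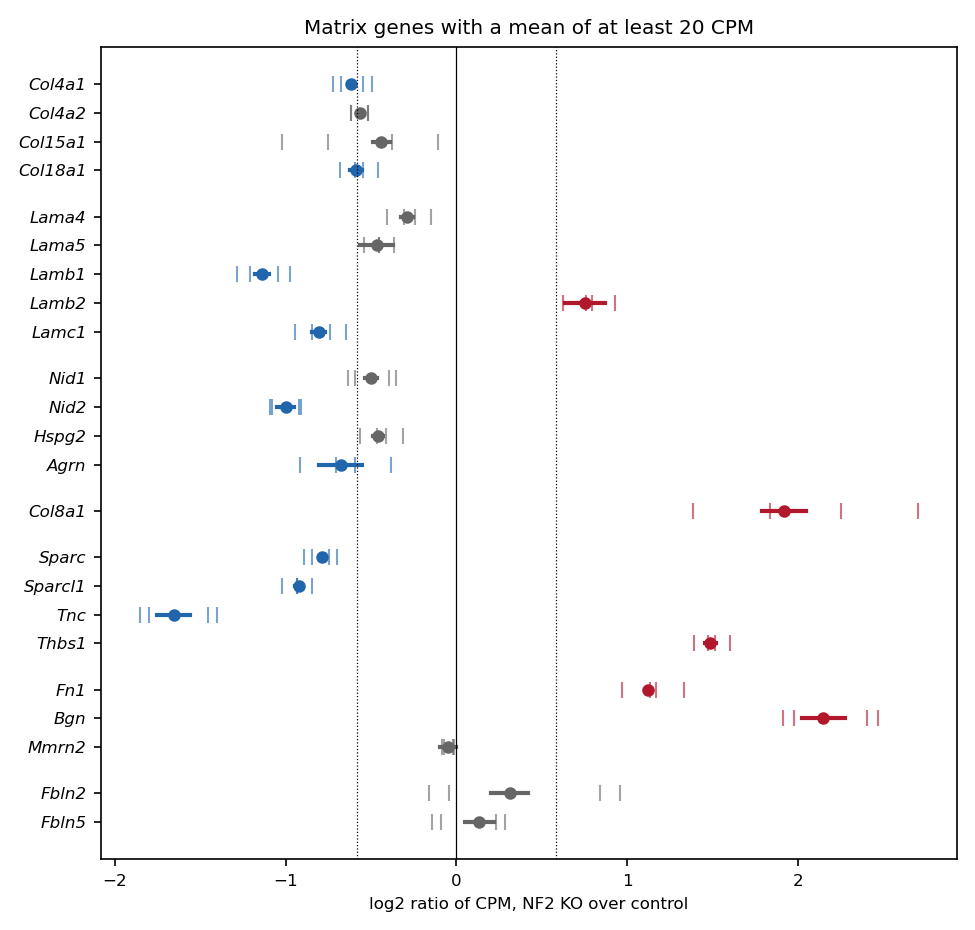
Each row is 1 matrix gene with a mean of at least 20 CPM, ordered by role from the basement membrane collagens at the top to the elastic fibre genes at the bottom. The x axis is the log2 ratio of CPM, NF2 KO over control; points are the library ratios, thick lines their 95% counting intervals, ticks the 4 pairs of runs, and dotted lines the 1.5-fold threshold (red higher, blue lower, grey not past). Lamb2 is the only basement membrane gene to the right of 0.

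The 4 promoters printed here, 2 of genes lower in the knockout library (Agrn and Tnc) and 2 of genes higher in it (Bgn and Col8a1), show what opposite members of the list have upstream of their starts. Each is the 250 bases before the RefSeq start on GRCm38.p6, written 5′ to 3′ on the strand of the gene, at chr4:156197489-156197738 (minus strand) for Agrn, chr4:64047016-64047265 (minus strand) for Tnc, chrX:73483351-73483600 (plus strand) for Bgn and chr16:57754738-57754987 (minus strand) for Col8a1. None of them overlaps an annotated exon of its gene. Capitals mark matches to the motifs searched on both strands: the SP1 GC box GGGCGG and the TATA box TATAAA were found in these 4, and the TEAD core CATTCC, the AP-1 motif TGANTCA and a consensus NF-kB motif were not.
Agrn promoter: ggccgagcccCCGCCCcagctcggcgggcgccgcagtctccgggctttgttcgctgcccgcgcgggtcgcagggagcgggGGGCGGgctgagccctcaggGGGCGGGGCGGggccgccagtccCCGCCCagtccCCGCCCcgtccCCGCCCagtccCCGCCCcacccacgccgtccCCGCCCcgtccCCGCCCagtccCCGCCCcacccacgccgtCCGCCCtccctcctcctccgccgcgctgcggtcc
Tnc promoter: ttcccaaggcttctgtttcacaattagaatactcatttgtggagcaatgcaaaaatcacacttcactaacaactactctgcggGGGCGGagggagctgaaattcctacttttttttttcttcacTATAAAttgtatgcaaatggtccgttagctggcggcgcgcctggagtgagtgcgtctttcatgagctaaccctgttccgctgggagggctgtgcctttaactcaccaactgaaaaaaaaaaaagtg
Bgn promoter: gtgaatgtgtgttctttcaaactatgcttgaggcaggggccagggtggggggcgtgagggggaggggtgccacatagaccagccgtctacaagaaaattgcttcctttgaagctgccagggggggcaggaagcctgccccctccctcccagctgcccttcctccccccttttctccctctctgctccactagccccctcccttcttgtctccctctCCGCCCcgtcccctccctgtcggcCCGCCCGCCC
Col8a1 promoter: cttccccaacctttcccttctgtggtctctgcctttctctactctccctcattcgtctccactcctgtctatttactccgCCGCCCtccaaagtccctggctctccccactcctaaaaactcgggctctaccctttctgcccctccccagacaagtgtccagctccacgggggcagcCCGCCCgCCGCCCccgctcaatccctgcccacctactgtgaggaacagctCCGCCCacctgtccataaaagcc
TEAD proteins are the DNA-binding partners of YAP and TAZ, the coactivators that the Hippo pathway restrains, which is why their motif was searched. RefSeq held promoters for 21 of the 34 members, in 26 windows because some genes have several starts. The TEAD core was present in 3 of the 26 windows (in Col3a1, Nid1 and the downstream start of Col18a1), against 12.64% of all 32851 promoter windows of that length, and the AP-1 motif in none, against 6.749%. The GC box was present in 8 of 12 windows of basement membrane members and 8 of 14 of other members, against 32.74% of all windows. The TATA box was present in 4 of the 26, in Col3a1, Tnc and Col13a1, against 12.37%. The 2 windows of Tnc overlap, so its 1 GC box and its 1 TATA box are each counted in both. Counted per gene, the GC box was present in 7 of 10 basement membrane and 7 of 11 other members, and the TATA box in 3 of 21 members. No motif searched contains another, and a match describes these letters only and is not a binding site.

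Both type IV collagen chains of the vascular basement membrane stood at lower levels in the knockout library, and their ratios were close to each other. Col4a1 (chromosome 8, 11198423 to 11312826, minus strand) was at 3829 and 3386 CPM in the control runs and 2400 and 2319 CPM in the knockout runs. Its library levels were 3598 CPM (3576 to 3620) and 2348 CPM (2334 to 2361), 1.53-fold lower (1.52 to 1.55). Col4a2 (chromosome 8, 11312805 to 11449287, plus strand) was at 2299 and 2143 CPM in the control runs and 1497 and 1496 CPM in the knockout runs. At 1.48-fold lower (1.47 to 1.498) it lay just outside the size rule that Col4a1 just met. For each of them both knockout runs lay below both control runs. The 2 genes lie head to head, and their annotated starts, 11312826 and 11312805, put their first 22 bases over each other on opposite strands. The ratio of Col4a1 to Col4a2 UMIs was 1.67 and 1.58 in the control runs and 1.60 and 1.55 in the knockout runs.

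Col18a1 and Col15a1 encode the multiplexins, collagens that carry glycosaminoglycan chains and release the fragments endostatin and restin. Col18a1 (chromosome 10, 77052178 to 77166548, minus strand) was at 420 and 395 CPM in the control runs and 288 and 262 CPM in the knockout runs, 1.501-fold lower (1.46 to 1.54) and at the edge of the size rule. Col15a1 was at 221 and 184 CPM in the control runs and 109 and 170 CPM in the knockout runs. Its ratio of 0.736 (0.711 to 0.762) did not pass, and the knockout runs differed from each other by a factor of 1.56, more than for any other basement membrane gene.

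Among the laminin chains, the beta chains went in opposite directions. Lamb1 (chromosome 12, 31265234 to 31329644, plus strand), the beta chain of the main endothelial laminins, was at 371 and 315 CPM in the control runs and 161 and 153 CPM in the knockout runs. It was 2.20-fold lower (2.14 to 2.27), the lowest ratio in the basement membrane list. Lamb2 (chromosome 9, 108479736 to 108490530, plus strand), the beta 2 chain found in mature vessels, was at 25.0 and 28.2 CPM in the control runs and 47.7 and 43.4 CPM in the knockout runs, a ratio of 1.68 (1.55 to 1.83). Every knockout run lay above every control run for Lamb2 and below them for Lamb1. Expressed as UMIs of Lamb2 per UMI of Lamb1, which does not depend on the scaling of the libraries, the ratio was 0.0674 and 0.0895 in the control runs and 0.297 and 0.285 in the knockout runs. Over the whole libraries it was 0.0780 (0.0723 to 0.0840) and 0.289 (0.276 to 0.303). These are ratios of 3′ tags and not of protein chains.

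Lamc1, the gamma 1 chain shared by most laminins (chromosome 1, 153218922 to 153332786, minus strand), was at 375 and 325 CPM in the control runs and 208 and 195 CPM in the knockout runs, 1.75-fold lower (1.70 to 1.80). The endothelial alpha chains differed less. Lama4 was at 343 and 281 CPM in the libraries (ratio 0.818, 0.798 to 0.840), and Lama5, the alpha chain of the denser arterial and capillary basement membrane, at 54.2 and 39.2 CPM (ratio 0.724, 0.677 to 0.774). Neither passed the size rule. UMIs of Lama5 per UMI of Lama4 were 0.144 and 0.172 in the control runs and 0.139 and 0.140 in the knockout runs. Over the whole libraries the ratio was 0.158 (0.150 to 0.167) in control and 0.140 (0.133 to 0.146) in knockout cells.

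Of the 4 linker genes, 2 were lower. Nid2 (chromosome 14, 19751265 to 19811787, plus strand), 1 of the 2 nidogens that join laminin to type IV collagen, was at 263 and 234 CPM in the control runs and 123 and 124 CPM in the knockout runs, 1.999-fold lower (1.93 to 2.07). Its paralogue Nid1 was at 390 and 330 CPM in the control runs and 258 and 251 CPM in the knockout runs, a ratio of 0.707 (0.689 to 0.725) that did not pass. UMIs of Nid1 per UMI of Nid2 were 1.45 (1.40 to 1.49) in control and 2.05 (1.99 to 2.11) in knockout cells. Agrn (chromosome 4, 156165290 to 156197488, minus strand), whose promoter is printed above, encodes agrin and was at 39.6 and 31.7 CPM in the control runs and 24.3 and 20.99 CPM in the knockout runs, 1.60-fold lower (1.47 to 1.74). Hspg2, which encodes perlecan, was at 622 and 580 CPM in the control runs and 468 and 420 CPM in the knockout runs. Its ratio of 0.728 (0.714 to 0.743) did not pass the size rule, and its runs did not overlap.

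**Figure D2:**
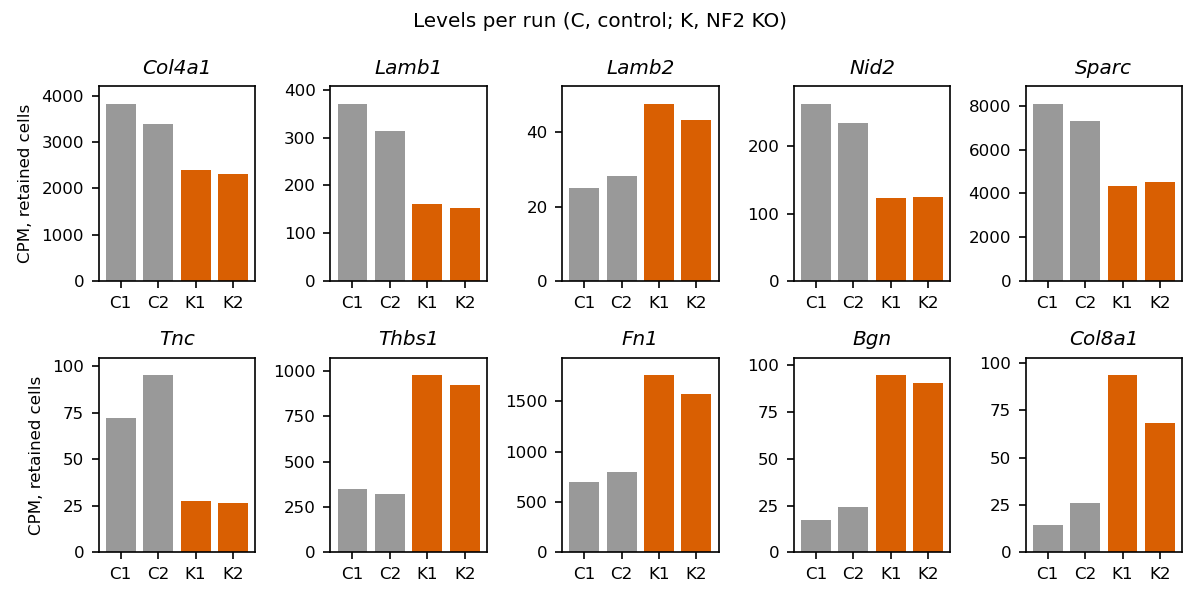
Level in CPM (y axis, from 0) in the retained cells of control runs 1 and 2 (C1 and C2, grey) and NF2 KO runs 1 and 2 (K1 and K2, orange) for 10 matrix genes; bars are single values without error bars. Col4a1, Lamb1, Nid2, Sparc and Tnc are lower in both knockout runs, and Lamb2, Thbs1, Fn1, Bgn and Col8a1 are higher.

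Of the interstitial and other collagens, Col8a1 alone reached 20 CPM. It encodes a chain of type VIII collagen, a short-chain collagen of subendothelial matrix (chromosome 16, 57624258 to 57754737, minus strand). It was at 14.4 and 26.1 CPM in the control runs and 93.5 and 68.3 CPM in the knockout runs, a ratio of 3.77 (3.46 to 4.12). The fibrillar collagen gene Col1a1 was at 1.03 and 1.17 CPM and Col5a2 at 0.178 and 0.288 CPM, from 5 and 15 UMIs. Col3a1 was at 11.97 and 6.54 CPM in the retained cells. In the left-out clusters led by neutrophil markers Col3a1 stood higher, at 69.5 and 23.1 CPM. Cluster 3 among them was also led by Col3a1 itself and by the fibroblast marker Dcn. In these left-out clusters Dcn was at 14.9 and 82.9 CPM, against 3.27 and 4.23 CPM in the retained cells. Col13a1, a transmembrane collagen, was at 19.5 and 14.3 CPM.

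The 4 matricellular genes all passed the size rule, 3 lower and 1 higher. Sparc (chromosome 11, 55394500 to 55423183, minus strand) encodes the calcium- and collagen-binding protein osteonectin. It was at 8094 and 7292 CPM in the control runs and 4355 and 4497 CPM in the knockout runs, 1.73-fold lower (1.72 to 1.74). Its relative Sparcl1 (chromosome 5, 104079111 to 104113733, minus strand) was at 912 and 859 CPM in the control runs and 449 and 477 CPM in the knockout runs, 1.89-fold lower (1.86 to 1.93). Tnc (chromosome 4, 63959785 to 64047015, minus strand), which encodes tenascin C of wounds and tumour stroma, was at 72.5 and 95.3 CPM in the control runs and 27.4 and 26.4 CPM in the knockout runs. At 3.15-fold lower (2.95 to 3.37) it had the lowest ratio of the members that reached 20 CPM. Thbs1 (chromosome 2, 118111876 to 118127133, plus strand), the gene of thrombospondin 1, an inhibitor of angiogenesis and activator of TGF-beta, was at 351 and 322 CPM in the control runs and 975 and 919 CPM in the knockout runs, a ratio of 2.80 (2.74 to 2.86). After each cell was thinned to 2000 UMIs, 33.6% of control and 66.2% of knockout cells had a Thbs1 UMI (61.0% and 91.3% before thinning), beside 25.2% of the 468 left-out neutrophil-led cells that held at least 2000 UMIs. All 1006 neutrophil-led cells had a median depth of 1881.5 UMIs. Most of them were in clusters 3 and 7, where endothelial markers summed to 7971 and 7937 CPM over both libraries. In retained control and knockout cells that sum was 11323 and 8937 CPM. The neutrophil-led cells are thus not a reference free of endothelial transcripts.

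Fibronectin and biglycan were higher in the knockout library. Fn1 (chromosome 1, 71585520 to 71653200, minus strand), the gene of fibronectin, which cells assemble into fibrils through integrins, was at 699 and 802 CPM in the control runs and 1760 and 1573 CPM in the knockout runs, a ratio of 2.18 (2.15 to 2.21). The share of cells with an Fn1 UMI after thinning was nearly the same, 43.0% and 45.5% (64.7% and 65.0% before thinning; 33.1% in the same 468 neutrophil-led cells). UMIs of Fn1 per UMI of Col4a1 were 0.209 (0.206 to 0.212) in control and 0.698 (0.692 to 0.705) in knockout cells. Without clusters 0 and 4, each mostly of 1 library, the log2 ratio of Fn1 was 0.58 in place of 1.12, just under the size rule. Bgn (chromosome X, 73483602 to 73495933, plus strand), the gene of the small leucine-rich proteoglycan biglycan, was at 17.1 and 24.0 CPM in the control runs and 94.5 and 90.3 CPM in the knockout runs. Its ratio of 4.43 (4.07 to 4.84) was the highest of the members that reached 20 CPM. Sub-clusters with at least 20 cells of each library were also given the same weight in both. With these weights the log2 ratio of Bgn was 1.45 in place of 2.15. Without clusters 0, 5 and 11 it was 2.68. Each of these clusters had 1 marker of another cell type, and none of endothelium, among its 10 leading genes. Leaving them out kept 1569 control and 1444 knockout cells. Mmrn2, a matrix protein specific to endothelium, was at 212 and 205 CPM (ratio 0.967, 0.936 to 0.998). Vcan, a large proteoglycan, was below 20 CPM, at 9.31 and 18.3 CPM, as was Mgp, an inhibitor of calcification, at 1.60 and 4.69 CPM.

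The elastic fibre and crosslinking genes were low. Fbln5 (58.0 and 60.2 CPM in the control runs, 54.4 and 70.6 CPM in the knockout runs) and Fbln2 (23.5 and 47.0 CPM, 42.1 and 45.7 CPM) encode fibulins that tie elastic fibres and basement membranes together. They had ratios of 1.096 (1.03 to 1.16) and 1.24 (1.15 to 1.34), and the runs overlapped. The log2 ratio of Fbln2, 0.31, turned to −0.43 with the same sub-cluster weights and to −0.083 without control run 1, and was 0.92, past the size rule, without control run 2. That of Fbln5, 0.13, turned to −0.37 without clusters 0, 5 and 11 and to −0.29 with the same sub-cluster weights. Eln, the gene of elastin, was at 1.95 and 7.77 CPM, from 55 and 404 UMIs. The microfibril gene Fbn1 was at 2.49 and 2.02 CPM, and Ltbp1, which holds latent TGF-beta in the matrix, at 0.923 and 1.13 CPM. Of the lysyl oxidases, Loxl2, which crosslinks type IV collagen, was at 8.60 and 8.48 CPM, and Lox had 3 UMIs in the control and 12 in the knockout cells. The 11 members below 20 CPM were outside the size rule.

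Genes that modify, fold and process collagens were read beside the members. Of 22 such genes, 15 reached 20 CPM: 1 was higher, 3 were lower and 11 did not pass, with a median log2 ratio of −0.20, beside 2.78% higher, 5.25% lower and a median of −0.03 among all 5830 genes tested. Pcolce, an enhancer of procollagen processing, had the highest ratio at 1.80 (1.66 to 1.95), from 27.2 to 48.9 CPM, followed by P3h2 at 1.04 and Plod2 at 1.003. Bmp1, the procollagen C-proteinase, was 1.57-fold lower (1.46 to 1.69). Pxdn, the peroxidase that forms the sulfilimine bond of type IV collagen, was at 300 and 191 CPM (ratio 0.638), and the lysyl hydroxylase Plod1 at 242 and 156 CPM (ratio 0.646). Of 49 further matrix genes, 8 reached 20 CPM: 1 was higher, 1 was lower and 6 did not pass, beside the same 2.78% and 5.25%. Efemp1, a fibulin, was at 22.7 and 39.0 CPM (ratio 1.72, 1.57 to 1.88) and Ecm1 at 126 and 66.4 CPM (ratio 0.526, 0.502 to 0.551). Spp1 (0.687) and Ltbp4 (0.728) had the next lowest ratios, and Emilin1 (0.948) and Igfbp7 (0.893) the next highest.

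Each retained cell of at least 2000 UMIs was scored for 7 endothelial states by its summed UMIs of fixed markers after thinning to 2000 UMIs. At most 10% of cells were put in a state, with both libraries weighted equally. The score needed was 3 UMIs for arterial, 5 for proliferating, 6 for venular, 9 for interferon, 10 for hypoxic, 22 for tip and 23 for capillary cells. Of the 345 arterial cells, 196 were at that threshold, and 546 further cells lay 1 UMI below it. The arterial state is thus weakly set apart. A state is a range of a score and not a cell type, and a cell can be in several: 166 of the 435 tip cells were also among the 413 hypoxic cells. Venular cells (Ackr1, Selp) numbered 85 in control and 305 in knockout cells, arterial cells 213 and 132, capillary cells 140 and 277, tip cells (Apln, Esm1) 77 and 358, proliferating cells 159 and 205, interferon cells 137 and 244, and hypoxic cells (Vegfa, Adm) 144 and 269.

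Within each library, Nid2 and the chains Lama4, Lamb1 and Lamc1, which together form the laminin of angiogenic vessels, were highest in tip cells and lowest in venular cells. Nid2 was at 450 CPM in control tip cells, 1.91-fold the level of the other retained cells (1.76 to 2.06), and at 241 CPM in knockout tip cells (2.26-fold, 2.14 to 2.39). In venular cells it was at 51.4 and 27.8 CPM, 0.1997-fold (0.154 to 0.254) and 0.207-fold (0.174 to 0.245) the other cells. Lama4 had the same order, with 513 and 516 CPM in tip cells and 120 and 98.6 CPM in venular cells. Lamb2 had the opposite order, with 49.8 and 63.6 CPM in venular cells and 16.6 and 41.5 CPM in tip cells. Lama5 was also highest in venular cells, at 68.5 and 69.8 CPM, above arterial (60.7 and 43.2 CPM) and capillary cells (50.1 and 50.7 CPM). Agrn was lowest in hypoxic cells, at 13.4 and 14.04 CPM.

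Fn1 was at 2521 and 3948 CPM in tip cells and at 2121 and 4469 CPM in hypoxic cells, against 306 and 114 CPM in venular cells. Thbs1 followed in part, at 883 and 2059 CPM in hypoxic cells (3.24-fold and 2.49-fold the other cells of the library). Loxl2 was at 25.4 and 32.5 CPM in hypoxic cells, 3.82-fold (2.87 to 5.05) and 5.36-fold (4.38 to 6.54) the others. Venular cells had the highest levels of Fbln2, Fbln5, Eln and Fbn1 of the 7 states in both libraries. Fbln2 was at 375 and 255 CPM there (19.2-fold and 11.7-fold the others), Fbln5 at 342 and 236 CPM (7.48-fold and 5.06-fold) and Eln at 35.0 and 63.6 CPM (94.1-fold, 46.8 to 209, and 35.6-fold, 27.9 to 45.8). The venular control level of Eln came from 45 UMIs, at 85.7 and 15.2 CPM in the control runs. The knockout runs, at 51.9 and 68.8 CPM, lay between them. Bgn was at 234 and 299 CPM in venular cells, Vcan at 52.9 and 76.1 CPM, Mgp at 24.1 and 23.1 CPM and Mmrn2 at 400 and 381 CPM. For Mgp the control runs there were apart, at 49.8 and 14.1 CPM, and the knockout runs were at 17.5 and 25.5 CPM. The Ackr1-led cluster that holds many of these cells was also led by Tagln, a smooth muscle marker, and its part in these levels was not tested. Col13a1 was highest in arterial cells (44.7 and 25.9 CPM), and Col8a1 in interferon cells (52.0 and 130 CPM).

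**Figure D3:**
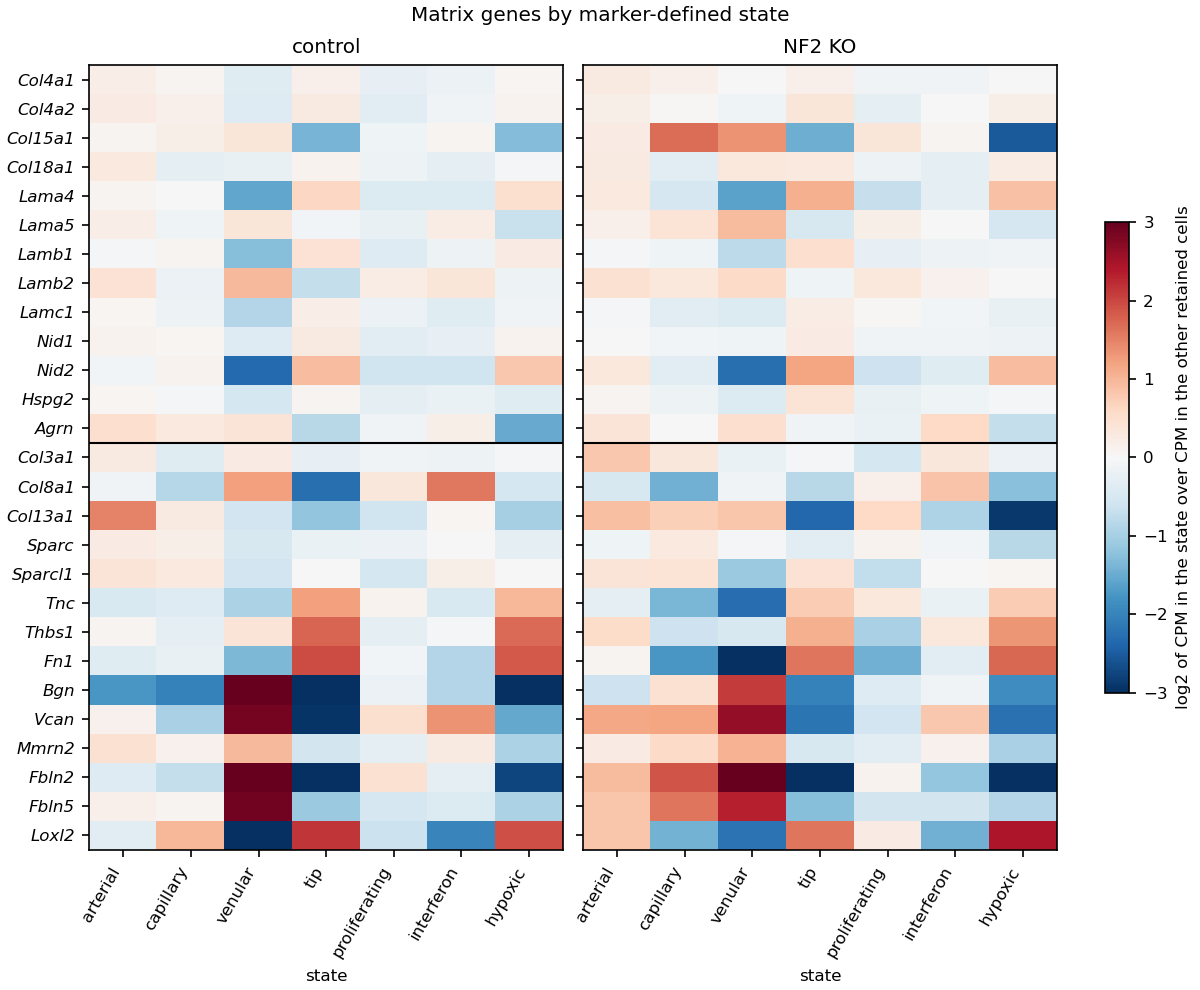
Rows are matrix genes (those past 20 CPM or at 5 CPM or more in both libraries; basement membrane above the line), columns are 7 marker-defined states, and the colour is the log2 of the CPM in the state over the CPM in the other retained cells of the same library, limited to −3 and 3. Venular cells are high in Bgn, Vcan, Fbln2 and Fbln5 and low in Nid2, Lama4 and Fn1 in both the control (left) and the NF2 KO library (right).

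The difference between the libraries was then read within each state. The median log2 ratio of the basement membrane members was below 0 in each of the 7 states, between −0.65 (capillary) and −0.28 (venular). In the arterial state 1 was higher and 6 were lower, where 6.32% and 7.14% of genes tested passed. In the capillary state 2 were higher and 8 lower (background 7.6% and 8.79%), in the venular state 0 and 3 (2.92% and 6.96%), and in the tip state 1 and 5 (5.56% and 8.49%). In the proliferating state 1 was higher and 4 lower (3.11% and 6.36%), in the interferon state 0 and 3 (3.61% and 5.66%), and in the hypoxic state 1 and 6 (3.88% and 8.84%). Lamb1 and Nid2 were lower by the size rule in 7 of 7 states, with ratios of 0.364 to 0.650 and 0.384 to 0.650. Lamc1 was lower in 5 of 7, with ratios of 0.514 to 0.793. Col4a1 passed in 2 of 7 states (tip and hypoxic), and its ratio lay between 0.623 and 0.838. Lamb2 was higher in 5 of 7, with ratios from 1.28 in venular cells to 2.50 in tip cells. The ratio closest to 1 for Col4a1, Lamb1, Lamb2 and Lamc1 alike was that of the venular cells. With at most 5% of cells in a state, the venular counts became 1 higher and 0 lower of 12 tested, over 40 control and 149 knockout cells. Of all 5950 genes tested there, 236 were higher and 398 lower. The median log2 ratio was −0.12 for the members and −0.05 for all genes. The venular ratio of Lamb1 was then 0.897, and Nid2 was too low for the size rule there. In the proliferating state the 4 lower members became 2, beside 268 higher and 417 lower of all 6133 genes tested.

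Of the other members, Tnc was lower in 7 of 7 states (0.134 to 0.374), Sparcl1 in 6 of 7 (0.380 to 0.689) and Sparc in 5 of 7 (0.401 to 0.771). Thbs1 was higher in 7 of 7 states, with ratios of 1.61 in venular to 3.85 in arterial cells. With at most 5% of cells in a state, Thbs1 was 1.39 in proliferating, 1.28 in tip and 1.37 in venular cells and did not pass there. Col8a1 was also higher in 7 of 7, with ratios of 1.60 in venular to 10.3 in tip cells, the latter from 7 control UMIs. Bgn was higher in 4 of the 5 states where it reached 20 CPM. It went from 5.42 to 123 CPM in capillary cells, from 12 control UMIs, and had a ratio of 1.28 (1.13 to 1.45) in venular cells, where the control level was already 234 CPM.

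Fn1 and Col15a1 were the members with ratios past the size rule in both directions. Fn1 was higher in interferon (3.12), arterial (2.87), hypoxic (2.11) and tip cells (1.57). It was lower in venular cells, at 171 and 359 CPM in the control runs and 128 and 109 CPM in the knockout runs (ratio 0.374, 0.329 to 0.427), and the knockout runs lay below the control runs. In capillary (0.797) and proliferating cells (0.903) it did not pass. Col15a1 was higher in capillary cells, at 226 and 229 CPM in the control runs and 308 and 421 CPM in the knockout runs (ratio 1.77, 1.60 to 1.96). In hypoxic cells it was lower, at 58.6 and 118 CPM and then 28.3 and 28.0 CPM (ratio 0.320, 0.258 to 0.397). With 1 library per group, the difference between states was not tested. Fbln2 and Fbln5, which did not pass over all retained cells, were at 22.6 and 135 CPM (ratio 5.98) and 61.9 and 169 CPM (ratio 2.73) in capillary cells, and lay below 1 in venular cells (0.680 and 0.689). In capillary cells the knockout runs stood apart, at 57.1 and 152 CPM for Fbln2 and 105 and 183 CPM for Fbln5. Of the 417 capillary cells, 64 were also among the 390 venular cells, and their part in these values was not tested.

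**Figure D4:**
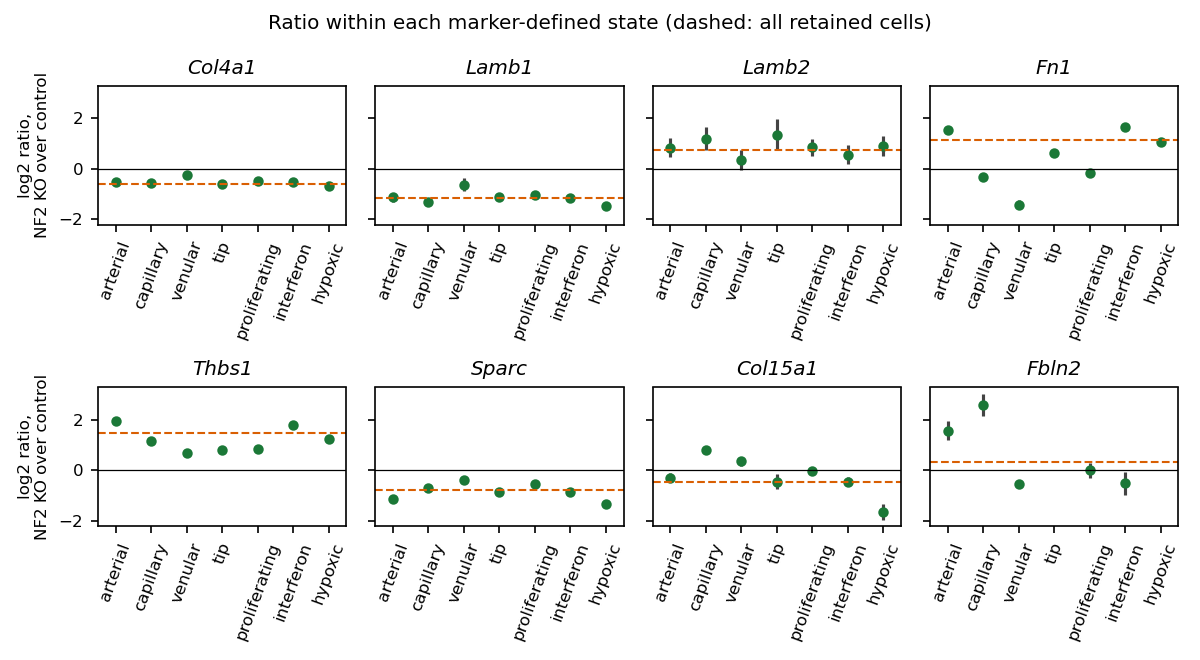
For 8 matrix genes, the log2 ratio of CPM, NF2 KO over control (y axis), is shown within each of 7 marker-defined states (x axis); points are ratios, bars 95% counting intervals, states with a mean under 20 CPM have no point, and the dashed line is the ratio over all retained cells. Lamb1 lies below 0 and Thbs1 above 0 in every state, whereas Fn1, Col15a1 and Fbln2 lie on both sides.

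Sub-clusters of the retained cells, made after each gene was centred within its library and without the members among the clustering genes, gave another split of the cells. In the 9 sub-clusters with at least 20 cells of each library, the ratio of Lamb1 lay between 0.362 and 0.569 and that of Lamc1 between 0.489 and 0.708. Nid2 lay between 0.465 and 0.760. Lamb2 lay above 1 in all 9, from 1.34 to 2.03. The ratio of Thbs1 was 1.64 to 6.00, and that of Tnc, in the 8 where it reached 20 CPM, 0.177 to 0.422. Fn1 lay on both sides of 1, from 0.770 to 4.30, and passed the size rule as higher in 4 and as lower in 0. Col15a1 lay between 0.262 and 1.09 and passed as higher in 0 and as lower in 3. Fbln2, in the 4 where it reached 20 CPM, lay between 0.603 and 1.52, and Fbln5 between 0.486 and 1.28. These 9 were then given the same weight in both libraries, which left out sub-clusters 8 (181 control and 11 knockout cells) and 10 (56 and 4). Of the 6 lower basement membrane members, 3 (Lamb1, Lamc1 and Nid2) still passed on fold and level, without an interval. The median log2 ratio of the other members was −0.16 in place of 0.22. The share of all genes past the size rule with these weights was not recorded.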

How the data were processed

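The data are 1 control and 1 NF2 KO library. The authors deposited natural log values, ln(1 + 10000 × UMIs of a gene / UMIs of the cell), tested on the values. From them 100% of values came back as whole UMI counts within 0.01 UMI. Cell Ranger 3.0.0, Seurat 3.1.1 and mm10 are named in the submitters' processing notes. Minimums of 500 genes and 1000 UMIs and a maximum of 10% mitochondrial UMIs were set for each cell, the 5% with the highest simulated-doublet scores per library (129 and 166 cells) were removed, and the rest were clustered with scanpy 1.11.5 (30 components of 2000 variable genes without the members, 15 neighbours, Leiden resolution 0.8). Of 16 clusters, 7 that were shallow (median under 0.333 of their own sample, no endothelial marker among 10 leading genes) or had at least 2 more markers of another cell type than of endothelium among those genes were left out (740 control and 408 knockout cells). Clusters 0, 5 and 11 had 1 such marker (Cldn4, Tagln and Lyz2) and were kept. Counts were summed per library, with exact Poisson and exact conditional intervals (scipy 1.17.1). No p-value was computed. The ratios, intervals and size rule were tested on simulated counts with Poisson error only. Cell filtering, clustering and state scoring were not simulated. Gene positions come from GENCODE for GRCm38, and promoters from RefSeq. The members, lists and rules were chosen with earlier results of these data known. Every member is named, and of each further list the 3 highest and 3 lowest ratios of genes of at least 20 CPM. Alternatives covered scaling, filters, doublets, clusters, thinning, weights and runs left out.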

Additional observations from a re-analysis of the deposited data

Results flagged for a closer look

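Fn1 and Col15a1 went in opposite directions in different states, in all runs. The ratio of Fn1, knockout over control, was 2.87 (2.71 to 3.03) in arterial, 3.12 (2.93 to 3.33) in interferon, 2.11 (2.05 to 2.17) in hypoxic and 1.57 (1.51 to 1.62) in tip cells, and 0.374 (0.329 to 0.427) in venular cells. The ratio of Col15a1 was 1.77 (1.60 to 1.96) in capillary and 0.320 (0.258 to 0.397) in hypoxic cells. In each of these states the knockout runs lay on 1 side of both control runs. The 9 sub-clusters did not show both directions by the size rule. There Fn1 was higher in 4 and lower in 0 (ratios of 0.770 to 4.30), and Col15a1 was higher in 0 and lower in 3 (0.262 to 1.09). With 1 library per group, these differences between states were not tested, and tip and hypoxic cells overlap.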

How the results depend on the processing

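The 14 members past the size rule kept their direction in all 252 values under 18 alternatives, and in 32 of these they no longer passed. Alternatives that change only the level filter or the fold leave the ratios as they were, so direction could not turn there. Scaling moved all ratios by 1 common factor. Lamb1, Tnc, Thbs1 and Bgn passed throughout. With the same sub-cluster weights a pass rests on fold and level alone, without an interval. Col4a1 and Col18a1 lie at the threshold and lost the call in 7 and 11 settings, and Agrn in 6. The share of all genes past the size rule was not recorded under each alternative, so the counts that follow stand without a background. The 6 lower basement membrane members became 3 without clusters 0 and 4 (chosen after seeing the data), 3 with the same sub-cluster weights, 1 at a fold of 2, and 3 to 8 when 1 run was left out (3 without control run 1). The 1 higher member became 0 at a fold of 2 and 0 at a mean of 50 CPM. Of the other members, the 4 higher ones became 7 with no filter on the level (Vcan, Mgp and Eln added) and the 3 lower ones 4 (Col3a1 added). The lower ones became 1 at a fold of 2. Their median log2 ratio of 0.22 was 0.0040 without cells that hold fibroblast or mural transcripts, 0.042 at a mean of 50 CPM, and −0.16 (reversed) with the same sub-cluster weights. It was 0.044 to 0.54 with 1 run left out. The difference of the medians, −0.79, was −0.35 with the same sub-cluster weights and −1.16 to −0.56 with 1 run left out. The cause of these shifts was not tested. No paired analysis was possible because each group is 1 library. Counting error limits members below about 20 CPM, and 1 library per group gives no spread between animals.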

Other observations

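Some members varied together from cell to cell. Spearman correlations were taken within each run over cells thinned to 5000 UMIs (656 and 589 control cells, 1063 and 1545 knockout cells), for 105 pairs of 15 members, and the cells of a run share library and chemistry. Col4a1 and Col4a2, which lie head to head, had the highest, 0.578 and 0.591 in the control runs and 0.557 and 0.532 in the knockout runs. Lama4 and Nid2 had 0.343 and 0.324 in the control and 0.249 and 0.283 in the knockout runs. The beta and gamma laminin chain genes Lamb1 and Lamc1 had 0.242 and 0.208 in the control and 0.135 and 0.126 in the knockout runs. The median over 45 pairs of basement membrane members was 0.224 and 0.202 in the control runs and 0.130 and 0.140 in the knockout runs. Thbs1 and Fn1 had 0.228 and 0.305 in the control and 0.394 and 0.387 in the knockout runs. Col15a1 and Fn1 had the lowest values, between −0.443 and −0.214. At a fixed number of UMIs per cell, lower levels by themselves lower such values, and their part was not tested.

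The left-out cells carried the same genes, and the endothelial markers summed to 8883 (control) and 7170 CPM (knockout) in them. Col4a1 was at 1703 and 933 CPM and Sparc at 6674 and 4362 CPM in the 706 control and 300 knockout cells of the neutrophil-led clusters. In the same clusters Col4a2 was at 1043 and 626 CPM and Hspg2 at 291 and 182 CPM. Col15a1 (89.0 and 139 CPM), Lama4 (189 and 198 CPM) and Lamb2 (8.61 and 27.1 CPM) went the other way. All left-out cells are a wider set that also holds cluster 10, with 2 control and 106 knockout cells. Summed over the basement membrane list, this wider set stood at 4655 (control) and 4829 CPM (knockout), where the retained cells stood at 8782 and 5820 CPM.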
